A study of Mus musculus with 4 samples.

Results

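The guanylate-binding proteins, encoded by the Gbp genes, were examined in mouse iTreg cells with and without added iron. The family was chosen by its CPM (reads of a gene scaled to the same total of reads in each library) in the FeSO4 libraries against the Mock libraries, so its levels and fold changes in that contrast are given here as a description. No p-value is given for a member, and where members called by the fit across all genes are counted, the count supports nothing. The 8 members were Gbp2, Gbp3, Gbp4, Gbp5, Gbp6, Gbp7, Gbp8 and Gbp9, found by Ensembl ID among the 47729 gene rows of the count table. The IDs paired with all 8 had a row, and 6 of these rows carried enough reads to enter the fit across genes. Whether the rows paired with Gbp5 and Gbp6 still stand for those genes could not be checked, as described below.

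CD4 T cells from the spleen of C57BL/6 mice were differentiated in culture into induced regulatory T cells (iTreg cells). The methods of the study call the treated cells wild type. For such cultures they describe naïve CD4 T cells taken from both spleen and lymph nodes. Cells of the FeSO4 group received 50 µM ferrous sulfate and cells of the Mock group received PBS, each for 4 days. Both groups were stimulated through CD3 and CD28 in medium with IL-2 (100 U/mL) and TGF-β (5 ng/mL), to which blocking antibodies against IFN-γ (5 µg/mL) and IL-4 (5 µg/mL) had been added. Each group had 2 RNA-seq libraries, which the methods of the study trace to separate experiments, and reads assigned to genes numbered between 35183187 and 40859178 per library. The antibody against IFN-γ was thus present in the cultures of both groups. The cells were a bulk culture, in which a change in the share of a cell type and a change in RNA per cell cannot be told apart.

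Guanylate-binding proteins are large GTPases of the dynamin superfamily, and their genes are among those that interferons induce most strongly. IFN-γ acts through its receptor and the kinases Jak1 and Jak2 and induces the transcription factor Irf1, and Gbp genes are known to be switched on through GAS elements and through interferon-stimulated response elements (ISREs), which IRF factors bind. The proteins gather on the membranes of intracellular pathogens and of the vacuoles around them and promote inflammasome activation, and some are anchored to membranes by a prenyl group. They are best studied in macrophages and fibroblasts, and T cells also express them.

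In the mouse the genes lie in a pair of clusters. In the GRCm38.p6 assembly, the chromosome 3 cluster held Gbp5 (chr3:142496934-142522344), Gbp7 (chr3:142530336-142550151), Gbp3 (chr3:142560016-142573213) and Gbp2 (chr3:142620663-142638008). The chromosome 5 cluster held Gbp8 (chr5:105012513-105053609), Gbp9 (chr5:105076464-105110357), Gbp4 (chr5:105115767-105139586) and Gbp6 (chr5:105270702-105295871). Of the 3 other Gbp genes, Gbp2b (chr3:142594816-142619179) lay beside Gbp2, and Gbp10 (chr5:105215699-105239533) and Gbp11 (chr5:105323026-105346476), a transcribed pseudogene, lay on chromosome 5.

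The promoters are shown because the members of the chromosome 3 cluster share an interferon-response motif close to their starts. The RefSeq promoter table (GRCm38.p6, 250 bases before to 50 bases after each transcript start) held Gbp2, Gbp3, Gbp5 and Gbp7. Gbp4, Gbp6, Gbp8 and Gbp9 were the other 4 members. Each stretch below is the plus strand, which is the strand of all 4 genes, written 5′ to 3′. Capitals mark the ISRE-like motif (GAAA, any 2 bases, GAAA), which lay on the minus strand in each and so reads here as TTTC, any 2 bases, TTTC. The stretches are chr3:142620584-142620633 for Gbp2, chr3:142559979-142560034 for Gbp3, chr3:142530263-142530312 for Gbp7 and chr3:142496749-142496798 for Gbp5.
Gbp2: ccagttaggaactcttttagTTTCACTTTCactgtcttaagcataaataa
Gbp3: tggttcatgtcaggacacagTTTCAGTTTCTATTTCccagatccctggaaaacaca
Gbp7: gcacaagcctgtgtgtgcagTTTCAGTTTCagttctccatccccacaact
Gbp5: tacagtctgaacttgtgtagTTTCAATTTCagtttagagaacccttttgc

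With the first transcribed base counted as 0, the motif spanned positions -59 to -50 in Gbp2, -53 to -44 in Gbp7 and -165 to -156 in Gbp5. Gbp3 carried 2 matches that overlap, at -45 to -36 and -39 to -30, and a second Gbp3 start in the table had none. These Gbp3 positions count from the transcript start of the promoter window chr3:142559794-142560093. That start lies inside the Gbp3 gene span given above and not at its first base. Searched on both strands, the motif was in 3.44% of all 32851 promoters of that table. The GAS motif TTCNNNGAA, which reads the same on both strands and was counted once, was in 8.30% of those promoters. It was found in Gbp5, at -245 to -237 and -52 to -44, and in Gbp7, at -106 to -98 and -87 to -79, and these letters did not occur in the windows of Gbp2 and Gbp3. A match is a description of the sequence and was not tested as a binding site.

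All 6 members in the fit were higher in the FeSO4 libraries than in the Mock libraries, and in each of them both FeSO4 libraries lay above both Mock libraries. Of the 13732 genes tested, 30.1% showed that separation. By edgeR's quasi-likelihood test at an adjusted p under 0.05, 10.6% of genes were called higher and 8.89% lower (1455 and 1221 genes, or 942 and 1746 with libraries scaled by size alone), and the 6 members in the fit were among those called higher. These shares are printed as background, and nothing is read from the members' count, because the same contrast chose the family. Log2 fold changes of the 6 ran from 0.58 to 2.04 with a median of 1.03, beside a median of -0.00045 over all genes tested. In the plot of levels by library, members are ordered by their FeSO4 level.

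**Figure D1:**
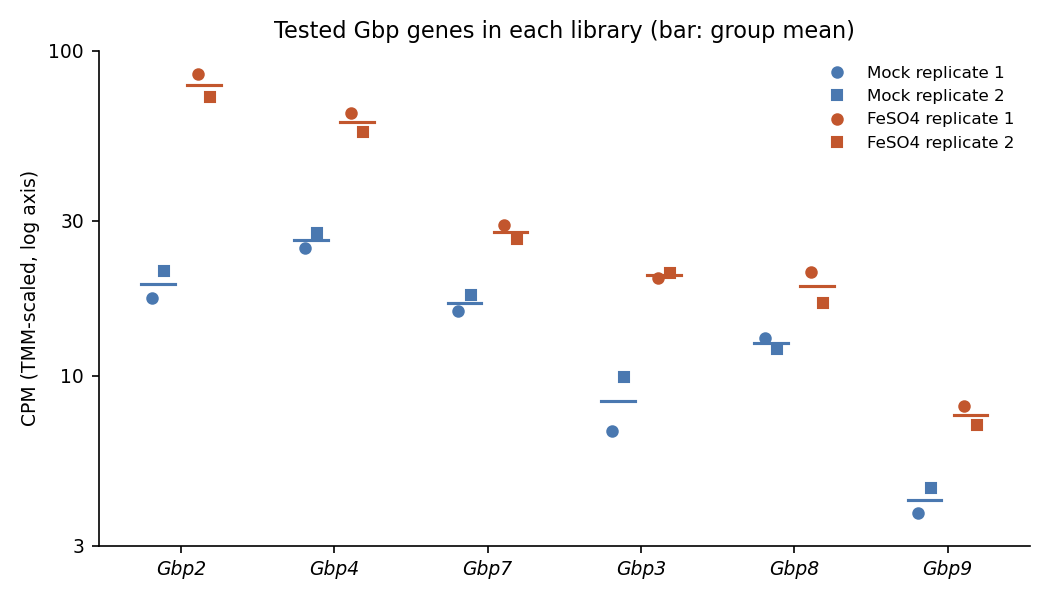
Level of each tested Gbp gene in every library, as CPM scaled by TMM on a log axis, with circles for replicate 1, squares for replicate 2 and a bar at each group mean. Both FeSO4 points lie above both Mock points in each of the 6 genes, with Gbp2 at 72.2 and 84.8 CPM against 17.3 and 21.0 CPM.

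Gbp2, a prenylated member that coats Toxoplasma vacuoles and contributes to the Aim2 inflammasome, showed the largest difference of the 6. It had 702 and 877 reads in the Mock libraries and 2905 and 2673 in the FeSO4 libraries. As CPM these were 17.3 and 21.0 in Mock and 84.8 and 72.2 with FeSO4. Group means were 19.1 ± 2.59 CPM in Mock and 78.5 ± 8.89 CPM with FeSO4 (SD, n = 2 per group). On the log2 scale the fold change was 2.04 ± 0.11 (SE), or 4.10-fold. The groups were far apart, since the lower FeSO4 library was 3.44 times the higher Mock library.

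Gbp3 had 274 and 415 reads in Mock and 686 and 769 with FeSO4, or 6.75, 9.92, 20.01 and 20.8 CPM in that order. The Mock libraries of this gene differed more from each other than those of any other tested member, by 1.47 times. Group means were 8.33 ± 2.24 and 20.4 ± 0.531 CPM, and the log2 fold change was 1.29 ± 0.16. The lower FeSO4 library was 2.02 times the higher Mock library.

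Gbp7, which is known to act in the delivery of oxidase and autophagy components to pathogen vacuoles, differed less. It measured 15.8 and 17.7 CPM in Mock and 29.1 and 26.4 CPM with FeSO4, from 642, 740, 996 and 976 reads. The means were 16.8 ± 1.32 and 27.7 ± 1.91 CPM, a log2 fold change of 0.73 ± 0.11. At the nearest libraries the FeSO4 level was 1.49 times the Mock level.

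Of the 3 tested members on chromosome 5, Gbp4 had the most reads and the largest difference. Its reads were 1002 and 1149 in Mock and 2198 and 2081 with FeSO4. These were 24.7 and 27.5 CPM against 64.1 and 56.2 CPM, with means of 26.1 ± 1.96 and 60.2 ± 5.61. The log2 fold change was 1.21 ± 0.10, and the groups stood 2.05 times apart at their nearest libraries. In Mock, Gbp4 was thus the member with the most reads, whereas with FeSO4 that member was Gbp2.

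Gbp9 was the tested member with the fewest reads, 153 and 189 in Mock and 276 and 261 with FeSO4. Its levels were 3.77 and 4.52 CPM in Mock and 8.05 and 7.05 CPM with FeSO4, a log2 fold change of 0.86 ± 0.20. Its standard error was the widest of the 6, and its groups still did not overlap, with 1.56 times between the nearest libraries.

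Gbp8 showed the smallest difference of the 6. Its reads were 531 and 505 in Mock and 716 and 621 with FeSO4, or 13.1, 12.1, 20.9 and 16.8 CPM. The means were 12.6 ± 0.715 and 18.8 ± 2.91 CPM and the log2 fold change 0.58 ± 0.13. The gap between the nearest libraries was 1.28 times. With FeSO4 replicate 1 left out, Gbp8 was no longer called, at 0.42 on the log2 scale.

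**Figure D2:**
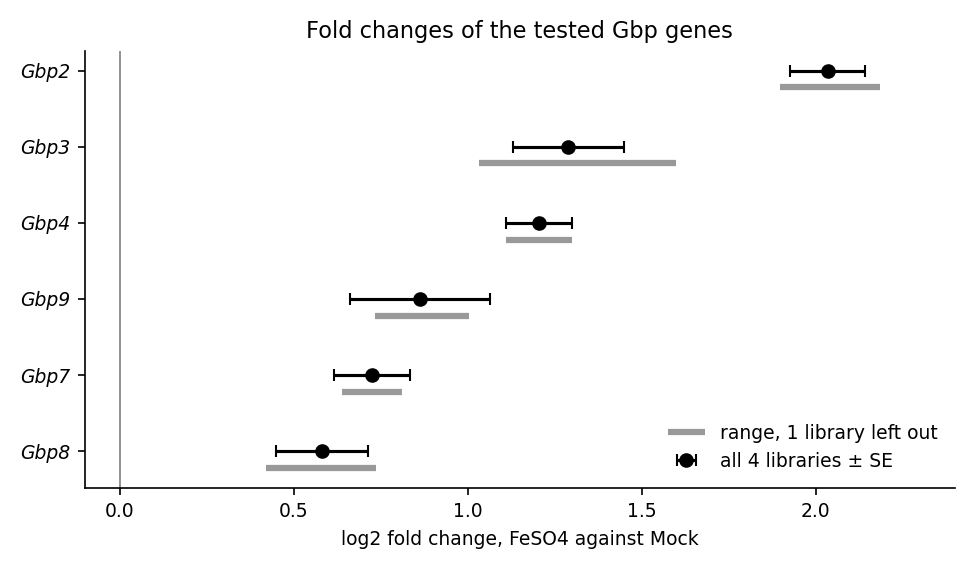
Log2 fold change of each tested Gbp gene, FeSO4 against Mock, with points and bars for the estimate and SE from all 4 libraries and grey bars for the range when each library was left out in turn. All ranges stay above 0, from 0.42 at the low end for Gbp8 to 2.18 at the high end for Gbp2.

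Within the groups the libraries kept an order. FeSO4 replicate 1 was above FeSO4 replicate 2 in 5 of the 6 tested members, Gbp3 being the other one, and Mock replicate 2 was above Mock replicate 1 in 5, Gbp8 being the other one. The plot of fold changes with each library left out shows how far this carried. Gbp3 moved most, from 1.03 without Mock replicate 1 to 1.60 without Mock replicate 2, whereas Gbp4 stayed between 1.11 and 1.30.

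The rows paired with Gbp5 and Gbp6 held almost no reads. The row ENSMUSG00000040264, paired with Gbp5, had 5 and 3 reads in Mock and 7 and 10 with FeSO4. The row ENSMUSG00000079362, paired with Gbp6, had 4 and 0 reads in Mock and 1 and 7 with FeSO4. Both failed the filter on low counts and were not tested. Without the TMM factor, 3 reads equal 0.0734 to 0.0853 CPM at these depths. The symbols came from GENCODE M1, an annotation older than that of the counts, and the M1 identifiers of Gbp2b and Gbp10 had no row, so it could not be checked whether these 2 rows still stand for Gbp5 and Gbp6. A further 14930 rows had no symbol in M1, and a Gbp gene could be among them. No level of Gbp5 or Gbp6 is therefore read from the 2 low rows.

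The 8 member rows summed to 81.6 and 92.7 CPM in Mock and 227 and 199.8 CPM with FeSO4. Since the rows paired with Gbp5 and Gbp6 added almost nothing, this is in effect the sum of the 6 tested genes and not the level of the whole family. The means were 87.1 ± 7.83 and 213 ± 19.3 CPM, a ratio of 2.45 on the CPM scale. The 3 tested members of the chromosome 3 cluster summed to 39.9 and 48.6 CPM in Mock and 134 and 119 CPM with FeSO4, and their log2 fold changes ran from 0.73 to 2.04. The 3 of the chromosome 5 cluster summed to 41.5 and 44.0 CPM in Mock and 93.1 and 80.0 CPM with FeSO4, with log2 fold changes from 0.58 to 1.21. Thus the clusters were close to each other in Mock, and with FeSO4 the chromosome 3 sum was above the chromosome 5 sum in both libraries. Members that differed by more and by less lay in each cluster, and the ranges overlapped.

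To compare levels between genes, reads were also scaled per kilobase of exon (RPKM, with GENCODE M1 exon lengths). In Mock the order of RPKM levels was Gbp2 (7.60 ± 1.03), Gbp4 (5.75 ± 0.433), Gbp8 (4.83 ± 0.275), Gbp7 (3.02 ± 0.238), Gbp3 (2.57 ± 0.692) and Gbp9 (1.14 ± 0.146). Gbp7 and Gbp3 were the only neighbours in that order whose libraries overlapped. With FeSO4 the order of RPKM levels was Gbp2 (31.2 ± 3.53), Gbp4 (13.3 ± 1.24), Gbp8 (7.23 ± 1.12), Gbp3 (6.29 ± 0.164), Gbp7 (4.99 ± 0.344) and Gbp9 (2.08 ± 0.196). Gbp8 and Gbp3 nearly touched, at 6.44 and 6.41 RPKM in their nearest libraries. The place of Gbp3 depended on the length used. With the longest coding transcript as the length, a choice made after seeing the data, the RPKM means of Gbp8 and Gbp3 with FeSO4 were 7.66 and 7.60, and in Mock Gbp3 was at 3.11 and Gbp7 at 3.02. Gbp2 made up 30.4 ± 1.40% of the summed RPKM of the 8 member rows, in effect of the 6 tested genes, in Mock and 47.8 ± 0.851% with FeSO4. The share of Gbp8 went from 19.5% to 11.1% and that of Gbp7 from 12.1% to 7.67%, although the level of each was higher with FeSO4.

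**Figure D3:**
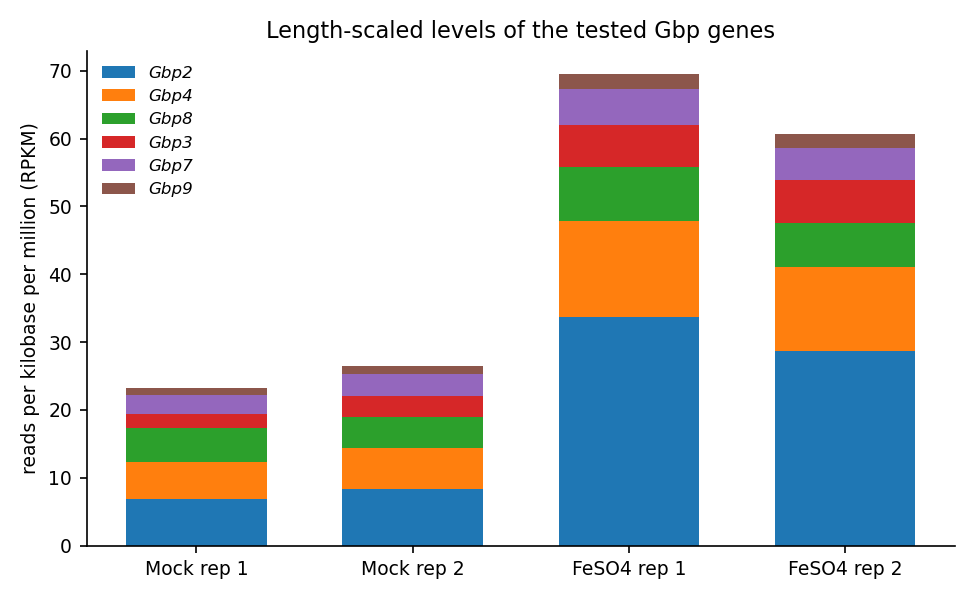
Stacked RPKM of the 6 tested Gbp genes in each library, on a linear axis from 0. Gbp2, the lowest block, is at 6.87 and 8.33 RPKM in Mock and at 33.7 and 28.7 RPKM with FeSO4.

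Reads can be lost or shared among copies of a gene, so the members' transcripts were compared with all other protein-coding transcripts of GENCODE M1. The coding sequences of Gbp4 and Gbp8 were 92.8% identical, those of Gbp4 and Gbp9 90.7%, and those of Gbp8 and Gbp9 90.2%. On chromosome 3 the closest pair of members, Gbp3 and Gbp7, was 78.3% identical, and Gbp2 was 82.5% identical to Gbp2b. Of all 50-base stretches of a transcript, 2.07% of those of Gbp2 occurred in another gene, 2.31% for Gbp7, 4.79% for Gbp3, 9.07% for Gbp9, 12.4% for Gbp4 and 20.2% for Gbp8. At 100 bases the shares of these 6 fell to between 0% for Gbp2 and 3.81% for Gbp8. Gbp6 was the exception, with 80.9% of its 50-base stretches in another gene, mostly Gbp10, to which its coding sequence was 98.4% identical. Reads counted for the chromosome 5 members are therefore less certain than those for Gbp2, and between 4.27% and 4.62% of reads per library aligned to more than 1 place and were in no gene's count. The part of such reads in the members' levels was not tested.

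**Figure D4:**
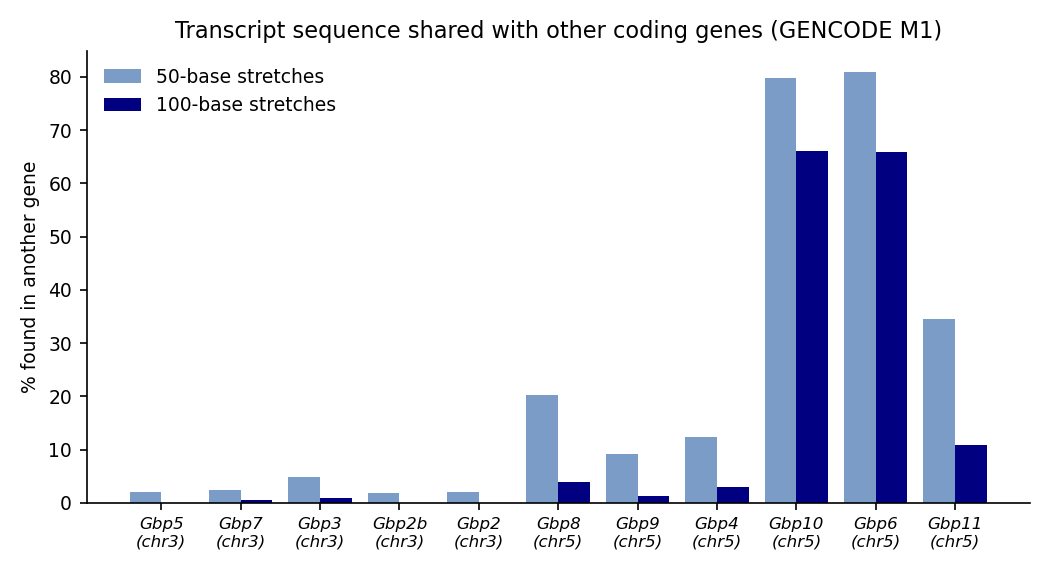
Percent of each Gbp transcript's 50-base (light) and 100-base (dark) stretches that also occur in a transcript of another protein-coding gene, with genes in map order within chromosomes 3 and 5. Gbp6 and Gbp10 reach 80.9% and 79.8% at 50 bases, and the chromosome 3 genes stay at or under 4.79%.

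Of the other Gbp genes, Gbp11 had a row and was low, with 25 and 48 reads in Mock and 138 and 163 with FeSO4. Its level was 0.882 ± 0.376 CPM in Mock and 4.21 ± 0.265 CPM with FeSO4, a log2 fold change of 2.25 ± 0.34 (edgeR adjusted p = 0.00032). Since 34.5% of its 50-base stretches occurred in other genes, mainly of its cluster, and the strand of counting was not stated, its reads may belong in part to those genes.

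The genes of interferon signalling were listed by role, with earlier results of these data known. Of 21 genes, 20 were tested, 5 were higher with FeSO4, 1 was lower, and the median log2 fold change was 0.05, beside 10.6% of all genes called higher, 8.89% called lower and a median of -0.00045. The ligand Ifng had 106 and 139 reads in Mock and 382 and 299 with FeSO4, with means of 2.97 ± 0.503 and 9.61 ± 2.17 CPM. It rose by 1.69 ± 0.22 on the log2 scale (edgeR adjusted p = 9.41e-05), in cultures that all contained the antibody against IFN-γ. Of the 4 receptor genes, edgeR called 0 in either direction, as did DESeq2 and limma-voom. Ifngr1 and Ifngr2, the chains of the IFN-γ receptor, had log2 fold changes of 0.12 (edgeR adjusted p = 0.249) and -0.20 (adjusted p = 0.110). Ifngr2 and Ifnar1 passed at an unadjusted p under 0.05, and both were called lower when libraries were scaled by size alone (log2 fold changes of -0.26 and -0.22).

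Among the kinases, Jak1 was lower with FeSO4, at 587 ± 20.5 CPM in Mock and 509 ± 2.69 CPM with FeSO4. Its log2 fold change was -0.21 ± 0.06 (edgeR adjusted p = 0.0227), and this call was lost without Mock replicate 2 (-0.17, adjusted p = 0.107), without FeSO4 replicate 1 (-0.20, adjusted p = 0.102) and without FeSO4 replicate 2 (-0.21, adjusted p = 0.0723). Among the transcription factors, Irf1 and Irf8 rose. Irf1, an activator of interferon-induced genes, went from 62.3 ± 0.405 to 99.2 ± 11.04 CPM (0.67 ± 0.08 on the log2 scale, edgeR adjusted p = 6.26e-05). Irf8, a partner of Irf1, went from 62.9 ± 0.869 to 109 ± 21.9 CPM (0.79 ± 0.10 on the log2 scale, edgeR adjusted p = 0.000101). Stat2, Stat3, Irf2 and Irf9 had log2 fold changes from -0.01 to 0.14 and did not pass the test.

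Of the 5 inhibitors, Ptpn2, a phosphatase that acts on Jak1, was higher by 0.27 ± 0.08 on the log2 scale (edgeR adjusted p = 0.027). That call was lost without Mock replicate 1 (0.21, adjusted p = 0.125) and without FeSO4 replicate 1 (0.20, adjusted p = 0.271). Socs1, the feedback inhibitor of the IFN-γ receptor, had a log2 fold change of -0.01, and Pias1 of -0.08. Usp18 was low, with 20 and 11 reads in Mock and 29 and 32 with FeSO4. Its log2 fold change of 1.17 ± 0.58 did not pass the test (edgeR adjusted p = 0.177). For Socs3 the FeSO4 libraries lay on either side of Mock, at 37.1 and 61.3 CPM against 48.4 and 47.8 CPM. It passed the test in opposite directions when FeSO4 replicate 1 was left out (0.36, edgeR adjusted p = 0.03) and when FeSO4 replicate 2 was left out (-0.37, edgeR adjusted p = 0.028).

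Other known targets of IFN-γ were mostly higher. Of 23 genes listed, 19 were tested, 15 were higher with FeSO4 and 0 lower, and the median log2 fold change was 0.52, against the same shares of 10.6% and 8.89% over all genes. By edgeR 0 of the 19 were also lower at an unadjusted level, and DESeq2 and limma-voom called 0 lower. The immunity-related GTPases, a family that shares vacuoles with the Gbp proteins, rose in 6 of 6 tested genes, with a median of 0.95. Iigp1 measured 5.17 and 6.38 CPM in Mock and 40.5 and 30.03 CPM with FeSO4, a log2 fold change of 2.61 ± 0.15 (edgeR adjusted p = 2.42e-08), above that of Gbp2. Irgm1, a regulator of the other GTPases of that family, had a log2 fold change of 1.04 ± 0.11 and Igtp of 0.88 ± 0.07. Tgtp1 and Tgtp2, with log2 fold changes of 0.64 and 1.03, are near-identical copies whose reads may be split between them.

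Genes of antigen presentation were called higher in 9 of the 10 tested, beside 10.6% of all genes. Log2 fold changes of the 9 ran from 0.27 to 0.60. B2m, the light chain of MHC class I, measured 838 ± 21.5 CPM in Mock and 1199 ± 21.0 CPM with FeSO4 (0.52 ± 0.06 on the log2 scale, edgeR adjusted p = 1.70e-05). Tap1, a subunit of the peptide transporter, and Psmb8, of the immunoproteasome, were higher by 0.60 and 0.54. Psme1, the smallest of the 9 at 0.27, was no longer called without FeSO4 replicate 1 (0.24, edgeR adjusted p = 0.0773). Ciita, the activator of MHC class II genes, had a log2 fold change of -0.02. The chemokine genes that IFN-γ induces in many cells were at or near 0, with 0 to 1 reads per library for Cxcl9 and Cxcl11 and 28 to 40 for Cxcl10. Cd274 (log2 fold change 0.29, edgeR adjusted p = 0.0853) and Nos2 (1.17, edgeR adjusted p = 0.0902) did not pass with all 4 libraries. Cd274 passed without FeSO4 replicate 2 (0.42, edgeR adjusted p = 0.0162), and Nos2 passed without FeSO4 replicate 1 (1.77, edgeR adjusted p = 0.00317).

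**Figure D5:**
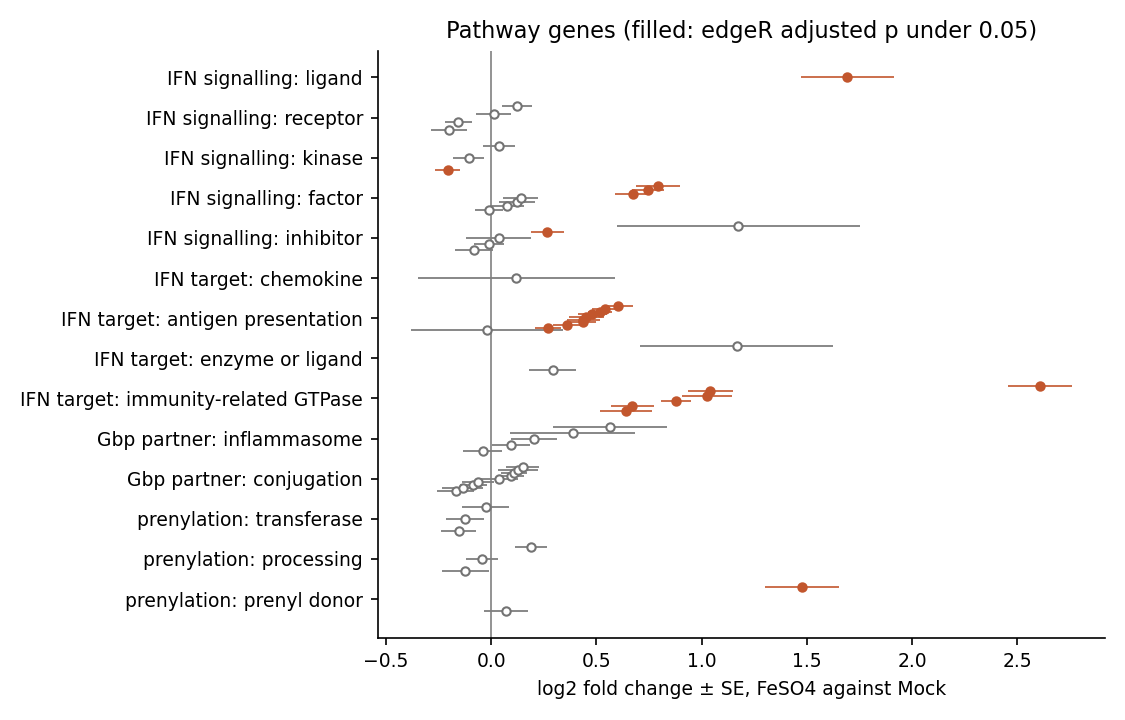
Log2 fold change with SE, FeSO4 against Mock, of each tested gene of the interferon signalling, interferon target, Gbp partner and prenylation lists, with filled points for genes at an edgeR adjusted p under 0.05. All 6 immunity-related GTPases and 9 of 10 antigen presentation genes are filled and lie above 0, and no partner gene is filled. Over all genes tested, 10.6% were called higher and 8.89% lower.

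Genes whose products work with Gbp proteins did not pass the test in either direction. Of 15 listed, which were inflammasome genes and the ubiquitin-like conjugation genes needed to place Gbp proteins on vacuoles, 14 were tested, and edgeR called 0 higher and 0 lower, beside 10.6% and 8.89% of all genes, so that few calls would be found in 14 genes at the background. At an unadjusted level edgeR also gave 0 in each direction, as did DESeq2 and limma-voom with adjustment, and the median log2 fold change was 0.09. Casp1, the inflammasome protease, measured 4.09 and 2.63 CPM in Mock and 5.86 and 4.08 CPM with FeSO4, so its groups overlapped. Aim2, the DNA sensor, had a log2 fold change of 0.20 and Gsdmd, the pore-forming protein, of -0.04.

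Of the 8 genes that make or attach prenyl groups or process prenylated proteins, 1 was higher with FeSO4, 0 were lower and the median log2 fold change was -0.03. With 10.6% of all genes called higher, 1 of 8 is near the background and is no result about this list. By edgeR 0 of the 8 were lower at an unadjusted level, and DESeq2 and limma-voom called 0 lower. The gene that was higher, Fdps, makes farnesyl diphosphate, a precursor of sterols as well as of prenyl groups. It went from 4.23 ± 0.338 to 11.8 ± 1.06 CPM (log2 fold change 1.48 ± 0.17, edgeR adjusted p = 4.02e-05). Fnta and Fntb, the subunits of farnesyltransferase, had log2 fold changes of -0.16 and -0.12, and Pggt1b, the beta subunit of the enzyme that attaches the longer prenyl group, of -0.03.

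Outside the family, the genes whose pattern over the 4 libraries was most like that of Gbp2, the member of highest mean CPM, were listed. Gbp genes were left out of that list beforehand. The distance uses the contrast that chose the family, so it is a description only. Log2 fold changes of the genes listed ran from 1.69 to 2.08, beside 2.04 for Gbp2 and 0.58 for Gbp8. Likeness was the Euclidean distance between log2 CPM profiles, each centred on its own mean, among 8437 genes of at least 10 CPM. The 5 nearest were Gpr15, a homing receptor of T cells (distance 0.202), Scd1, a fatty acid desaturase (0.222), Ly6a, the Sca-1 surface antigen (0.225), Scd2, another desaturase (0.347) and Serpina3g, a protease inhibitor (0.365). Ly6a measured 57.2 and 56.5 CPM in Mock and 250.7 and 230.2 CPM with FeSO4, and Gpr15 measured 5.37 and 7.07 CPM against 24.9 and 25.3 CPM. The nearest member was Gbp3, at a distance of 0.792 with 21 genes closer, followed by Gbp4 at 0.825 with 24 genes closer. Gbp8 was farthest at 1.48, with 184 genes closer.

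The libraries carried the markers of CD4 T and Treg cells, and the summed CPM of Cd3e, Cd4, Foxp3 and Il2ra was 2922 and 3187 in Mock and 2850 and 3050 with FeSO4. Foxp3 itself was lower with FeSO4, at 375 and 471 CPM against 586 and 693 CPM in Mock. The 2 markers of NK cells, Ncr1 and Klrb1c, were at 0 reads in all 4 libraries. The 5 markers of macrophages and monocytes summed to 185 and 36 reads in Mock and 13 and 30 with FeSO4, of which Lyz2 gave 164 and 8 in Mock and 0 in both FeSO4 libraries. The neutrophil markers gave 41 and 1 reads in Mock and 1 and 0 with FeSO4, the 3 dendritic markers 9 and 1 against 3 and 14, and the 3 B cell markers 114 and 77 against 76 and 69. Lyz2 and the summed neutrophil markers were thus highest in Mock replicate 1, a library in which 5 of the 6 tested Gbp genes were lowest, whereas Adgre1, a macrophage marker, had 8 reads there against 28 in Mock replicate 2 and 12 and 29 with FeSO4. CD8 T cell markers summed to 398 and 378 reads in Mock and 341 and 408 with FeSO4. The part of these cells, and of the lower Foxp3, in the Gbp levels was not tested.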

How the data were processed

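The authors deposited raw counts of reads per Ensembl gene for 4 libraries, not normalized. The submitters' processing notes name Trim Galore 0.6.7, STAR 2.7.9a, featureCounts and the build mm10, whereas the methods of the study give mm9 and DESeq. The last 5 rows carry the names that htseq-count gives to unassigned reads. The annotation and strand setting are not given in the sources used here. Those 5 rows entered neither the library sizes nor the tests. Of all reads listed, reads without a feature came to 4.36 to 6.03%, ambiguous reads to 3.78 to 3.91%, reads of low alignment quality to 0.802 to 0.988%, unaligned reads to 1.80 to 2.31% and reads aligned to several places to 4.27 to 4.62%. All 4 value columns belonged to the 4 samples.

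Symbols were matched by Ensembl ID to GENCODE M1, and 14930 of the 47729 IDs, with 0.755% of reads, had none. Positions and promoters came from RefSeq on GRCm38.p6, and transcript lengths and sequences from GENCODE M1. Counts were tested with edgeR 4.0.16 in R 4.3.3 by the quasi-likelihood F test (filterByExpr, TMM, group as the only term) on all 13732 genes kept, with Benjamini-Hochberg adjustment, and a gene was called at an adjusted p under 0.05. CPM was the count scaled to the effective library size, that is reads in genes times the TMM factor, and the SE was derived from the F statistic. With 2 libraries per group, an exact permutation test of a single value could not pass that threshold, so sums are given without a test. The counts of the libraries of a group differed by more than sampling noise, with a chi-square per degree of freedom of 8.85 in Mock and 7.25 with FeSO4, so each library was counted on its own. The floor of 3 reads covers counting error only, whereas ± values are SDs between the libraries of a group or SEs of the fit. On simulated data the fit called 55.4% of genes with a log2 change of 0.5 in size, 77% at 1 and 89.9% at 2. Changes of such sizes can thus go uncalled.

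The members and gene lists were chosen with earlier results of these data known. Genes named were all members, the other Gbp genes and the 5 genes outside the family nearest to Gbp2. In each other list they were up to 4 called genes of smallest p and the genes of each role described. A gene counted in the interferon signalling list is not reported here. Cxcl, Socs3, Cd274, Nos2 and Foxp3 values were picked out after they were seen. Alternatives were DESeq2 1.42.0, limma-voom (limma 3.58.1), 3 other scalings, 2 other filters, the leaving out of each library, a block for the replicate number, an unadjusted p with a fold change limit, and 100-base stretches for shared sequence.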

Additional observations from a re-analysis of the deposited data

Results flagged for a closer look

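Of the 5 classes of reads that entered no gene, 2 took a larger share in both FeSO4 libraries than in either Mock library. The share of reads aligned to more than 1 place was higher with FeSO4 than in Mock, at 4.60% and 4.62% against 4.42% and 4.27%, with every FeSO4 library above the highest Mock library and a difference of the means of 0.264 percentage points. The share set aside for low alignment quality was 0.978% and 0.988% with FeSO4 against 0.802% and 0.929% in Mock, so that the group means lay 0.118 percentage points apart. Reads without a feature went the other way, at 4.36% and 5.21% with FeSO4 against 5.31% and 6.03% in Mock, and in the ambiguous and unaligned classes the groups overlapped. Which genes these reads came from, and whether Gbp genes were among them, was not tested.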

How the results depend on the processing

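The contrast chose the members, so their values under the alternatives are a description and their direction is no sign of stability. Their log2 fold changes under the alternatives ran from 0.42 (Gbp8 without FeSO4 replicate 1, where it was not called) to 2.18 (Gbp2 without Mock replicate 2). The log2 fold change of Gbp3 moved from 1.29 to 1.60 without Mock replicate 2, and the RPKM of Gbp3 with FeSO4 moved to 7.60 with the longest transcript as length. The log2 ratio of the members' sum was 1.29 with TMM and with DESeq2 size factors, 1.27 with upper quartile scaling and 1.23 by library size alone. Over all genes, 1455 were called higher and 1221 lower, a 54.4% share of higher calls. Library size alone gave 942 higher and 1746 lower, a 35.0% share, with a shift of the median of -0.065, and interferon signalling then had 3 genes called lower, Jak1 with Ifngr2 and Ifnar1. The study's kind of threshold, an unadjusted p under 0.05 with a log2 change of at least 0.5, gave 614 higher and 766 lower in edgeR, and 0 lower in interferon signalling. It also lowered the genes called higher from 15 to 10 of the 19 interferon targets and from 5 to 4 in interferon signalling. Leaving out 1 library gave 927 to 1159 higher and 799 to 1031 lower, the fewest without FeSO4 replicate 1, and 0 to 1 lower in interferon signalling. The call for Ptpn2 was also lost by library size alone (0.20, edgeR adjusted p = 0.0814). The median share of the members' stretches found in another gene fell from 6.93% at 50 bases to 1.10% at 100 bases, since a longer stretch is less often shared. The causes of the other changes were not tested.

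The replicate number as a block gave 1742 genes higher and 1467 lower, with log2 fold changes of the tested members from 0.58 to 2.03. The methods of the study describe 2 pairs of samples, drawn from 2 independent experiments. The labels do not tie a number to an experiment, and deviations of libraries with the same number correlated at 0.0647. The pairing by number was therefore not used in the main fit. Taken by number, the FeSO4 to Mock ratio of pair 1 was above that of pair 2 in all 6 tested members. With 2 libraries per group, leaving out 1 leaves a lone library whose spread is taken from the other group. The depth limits the 2 low Gbp rows, where counts of 0 to 10 reads carry no comparison.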
